A study of Homo sapiens with 30 samples.

Results

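The core pluripotency factors described here are 9 genes chosen by exact gene symbol: POU5F1, NANOG, SOX2, PRDM14, ZFP42, SALL4, DPPA4, L1TD1 and UTF1. All 9 were found among the 41495 entries of the time-course table. The authors' deposited tables of the D3 and the D4 sort each listed 7 of them, among 4648 and 4825 genes. All 9 passed a minimum of 1 FPKM in at least 1 time point, UTF1 through hESC alone. FPKM is fragment density per length of transcript, scaled to the number of mapped fragments.

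Pluripotent cells hold a network of transcription factors that bind each other's genes and keep lineage genes low. POU5F1, which encodes OCT4, and SOX2 bind DNA together at adjoining sites, and NANOG, a homeodomain protein, shares many of their targets. In the mouse embryo these factors are lost in different lineages at different times. SOX2 is kept in the neural plate, whereas POU5F1 and NANOG are still made in the primitive streak, from which mesoderm and heart arise.

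H7, an established human embryonic stem cell line, was differentiated to cardiomyocytes and profiled by RNA sequencing in 30 libraries, 2 in each of 15 groups. Untreated stem cells (hESC) were followed by cells of days 1, 2, 3, 4, 5, 6, 8, 10 and 15 (D1 to D15) and by cardiomyocytes of day 31 purified on Percoll. Every group after hESC had received 12 µM of CHIR99021, a GSK3 inhibitor that activates WNT signalling, for 24 hours, and the protocol then used IWP4, which blocks WNT secretion, at 5 µM for 2 days. PMESO cells were sorted on D3 for the receptor ROR2 and set against ROR2-negative cells, and CMESO cells were sorted on D4 for ROR2 and PDGFRa and set against ROR2-positive, PDGFRa-negative cells. All groups share 1 cell line. Each time point has 1 deposited FPKM value per gene that stands for both libraries, so no spread, interval or test can be set beside a time-course value. Members are called higher or lower where log2(FPKM + 1) differed by at least 1, a 2-fold change. In unsorted cultures, fewer cells that express a gene and less RNA per cell cannot be told apart.

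The labels were checked against marker genes. The pluripotency genes LIN28A, TDGF1 and DNMT3B stood at 708, 346 and 126 FPKM in hESC. The summed FPKM of 10 cardiomyocyte genes was 12945 in the purified cardiomyocytes and 20.7 in hESC. The hESC column stood apart in another list: the summed FPKM of 13 stress and immediate early genes was 1655 in hESC and between 152 and 1103 at the later time points. The hESC column as a whole summed to 1429860 FPKM, and the later columns to between 617580 and 921107 FPKM. The median ratio of hESC to the other time points was 1.01. The share of these differences in the members' change between hESC and D1 was not tested.

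RefSeq promoters of GRCh38.p14, which run from 250 bases before to 50 bases after the annotated start, were matched for 6 of the 9 members: L1TD1, DPPA4, SOX2, ZFP42, UTF1 and NANOG. A total of 4 are shown, because they belong to genes that followed different courses. NANOG had the steepest fall within 1 day, and SOX2 had not fallen at D3. DPPA4 was at 39.8% of its hESC level at D1, and ZFP42 was higher at D1 than in hESC. Capitals mark matches on either strand to the POU motif TTTGCAT, the GC box GGGCGG and TATAAA, and in NANOG also the 5 bases after the POU motif, which hold ACAA after 1 spacer base. They lie at chr12:7789152-7789451 (NANOG, plus strand), chr3:181711675-181711974 (SOX2, plus strand), chr3:109337497-109337796 (DPPA4, minus strand) and chr4:187995521-187995820 (ZFP42, plus strand).
NANOG: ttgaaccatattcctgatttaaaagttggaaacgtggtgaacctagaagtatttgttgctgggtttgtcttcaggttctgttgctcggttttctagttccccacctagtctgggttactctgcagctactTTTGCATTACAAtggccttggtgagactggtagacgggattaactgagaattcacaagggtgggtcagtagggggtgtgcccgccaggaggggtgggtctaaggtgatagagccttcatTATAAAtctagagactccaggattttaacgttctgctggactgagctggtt
SOX2: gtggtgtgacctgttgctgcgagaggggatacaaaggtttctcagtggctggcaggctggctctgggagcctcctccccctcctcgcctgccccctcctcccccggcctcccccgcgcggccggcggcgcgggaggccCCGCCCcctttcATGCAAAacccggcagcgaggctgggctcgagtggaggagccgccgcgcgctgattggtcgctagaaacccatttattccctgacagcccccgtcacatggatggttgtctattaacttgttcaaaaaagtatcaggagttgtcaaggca
DPPA4: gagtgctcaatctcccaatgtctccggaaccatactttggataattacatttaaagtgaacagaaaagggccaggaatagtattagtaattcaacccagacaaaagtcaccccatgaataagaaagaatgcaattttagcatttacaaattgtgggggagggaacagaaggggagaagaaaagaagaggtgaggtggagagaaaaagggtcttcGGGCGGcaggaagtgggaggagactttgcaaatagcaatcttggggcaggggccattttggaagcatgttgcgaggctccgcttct
ZFP42: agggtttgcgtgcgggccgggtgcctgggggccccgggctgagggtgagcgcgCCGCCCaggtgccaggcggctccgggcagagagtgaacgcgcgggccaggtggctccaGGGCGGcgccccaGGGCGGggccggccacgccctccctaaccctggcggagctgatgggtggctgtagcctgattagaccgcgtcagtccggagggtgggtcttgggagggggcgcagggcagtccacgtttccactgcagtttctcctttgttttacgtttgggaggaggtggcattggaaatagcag

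The POU motif TTTGCAT was found in 2 of the 6 promoters, those of NANOG and SOX2, and in 4.46% of all 35116 promoters of the table. Counted from the annotated start, its first base lay at -120 in NANOG and at -100 in SOX2, where it reads ATGCAAA on the printed strand. The POU motif followed after 1 base by ACAA, the joint layout bound by OCT4 and SOX2, was found in NANOG and in 11 promoters of the whole table. The longer octamer ATGCAAAT, which contains the shorter motif, was found in 0 of the 6 and in 1.77% of all promoters. GC boxes were found in 5 of the 6, all but NANOG, against 45% of all promoters, with 3 matches in ZFP42 and 6 in UTF1. TATAAA was found in NANOG alone of the 6, with its first base at -1, next to the annotated start, and in 11.5% of all. The GC content was 46.7% in NANOG, 45.3% in DPPA4, 63.3% in SOX2 and 69.3% in ZFP42, beside a median of 58.7% over all promoters. In the authors' hg19 coordinates, turned to count from 1, the locus given for POU5F1 is chr6:31126319-31148508, for NANOG chr12:7940390-7948655 and for ZFP42 chr4:188916925-188926204. That of SALL4 is chr20:50400581-50419059, of DPPA4 chr3:109044988-109056419 and of L1TD1 chr1:62660503-62678000. Such a locus can be wider than the gene itself, as described for SOX2 below. The motif matches describe letters in the reference and were not measured in the cells.

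By the day 31 endpoint 9 of 9 members were at least 2-fold lower in cardiomyocytes than in hESC, against 16.9% of the 21711 genes kept, and 0 were higher (background 18.7%). Their median difference, cardiomyocytes minus hESC, was -4.80 in log2(FPKM + 1), and that of all genes kept was 0.03. The summed FPKM of the 9 was 7.21 in cardiomyocytes and 2054 in hESC. All 9 members had at least 1 FPKM in hESC, as did 15898 of the genes kept. A gene under 1 FPKM in hESC cannot fall by 1 in log2(FPKM + 1), which lowers the backgrounds of lower genes against hESC. UTF1 passed the filter through hESC alone, so its fall was set by that filter, and it is in each count of lower members against hESC. The members did not leave together. Against hESC, 3 were at least 2-fold lower at D1 (background 11.1%), 3 at D2 (11.8%), 5 at D3 (13%), 7 at D4 (13.3%), 8 at D5 (13.2%), 8 at D6 (14.1%) and 9 at D8 (13.4%). At D1, 2 members, ZFP42 and L1TD1, were at least 2-fold higher than in hESC (background 12%).

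**Figure D1:**
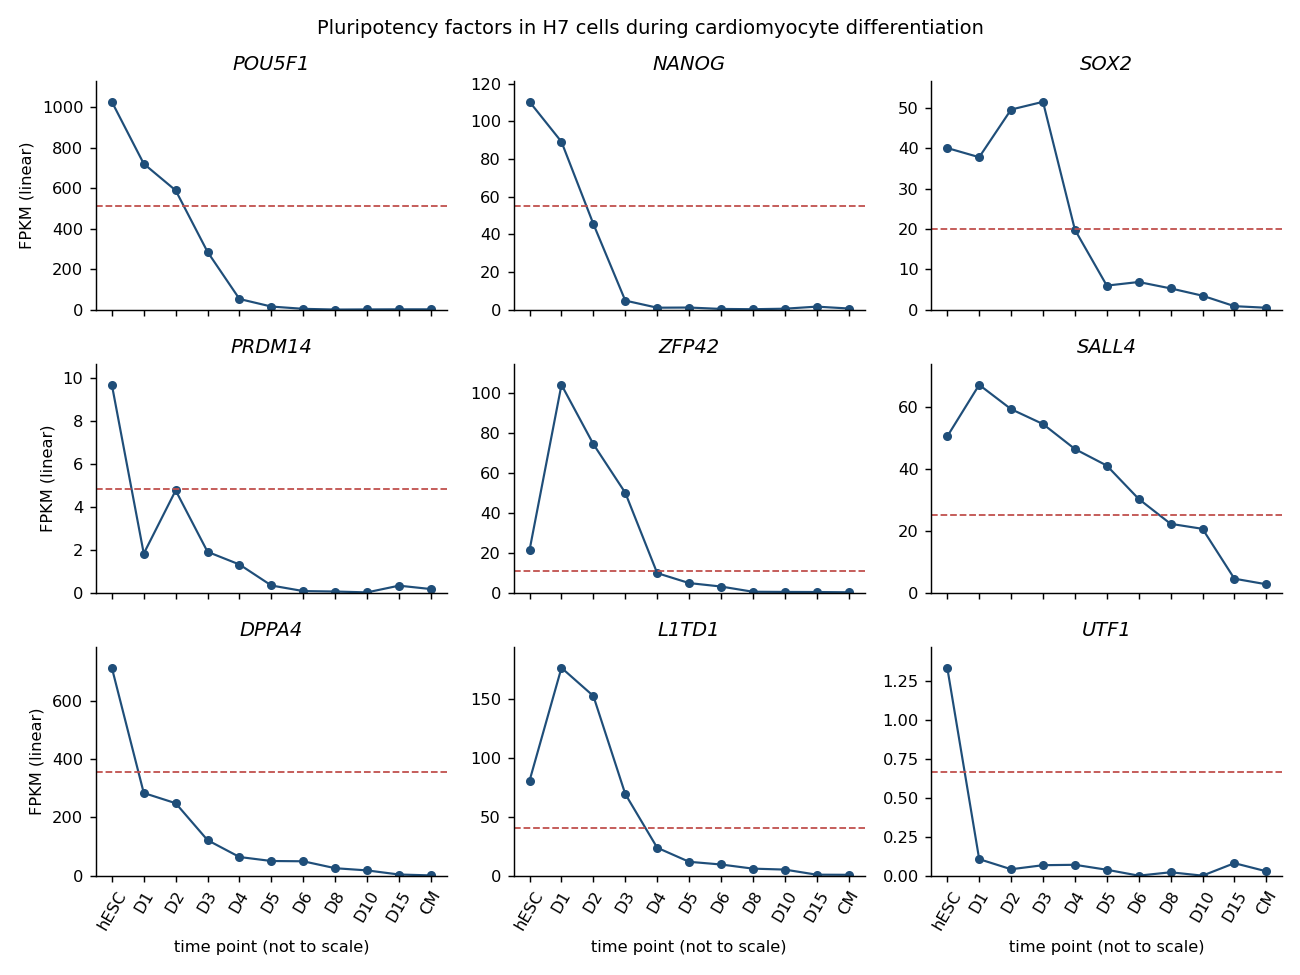
FPKM (linear axis from 0, scaled to each gene) of the 9 members at the 11 time points, 1 deposited value per point, with the dashed red line at 50% of the hESC value. ZFP42, L1TD1 and SALL4 are highest at D1 and SOX2 at D3, while the other 5 genes are highest in hESC.

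Among the 3 factors at the centre of the network, NANOG went first, POU5F1 followed and SOX2 came last. NANOG stood at 110 FPKM in hESC and then at 89.2, 45.5, 4.81, 1.04, 1.12, 0.383, 0.232, 0.500, 1.60 and 0.610 FPKM at the days from D1 to D15 in turn and in cardiomyocytes. It was still at 80.8% of its hESC level at D1, at 41.2% at D2 and at 4.36% at D3. The step from D2 to D3 changed log2(FPKM + 1) by -3.00 per day, the steepest daily fall of any member.

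POU5F1, the most abundant member in hESC, stood at 1026 FPKM there and at 720, 588, 285, 52.5, 15.2, 4.05, 0.486, 1.17, 1.62 and 1.54 FPKM at the later time points in the same order. It kept 57.4% of its hESC level at D2 and 27.8% at D3, when NANOG was at 4.36%. Its steepest fall came a day after that of NANOG, between D3 and D4, at -2.42 per day in log2(FPKM + 1). After its lowest value at D8 POU5F1 did not stay below 1 FPKM. Its paralogue POU5F1B ranged from 0.460 to 1.07 FPKM over the 11 time points, and reads shared between such near-identical copies may have been split, so values of POU5F1 near 1 FPKM are uncertain. NANOG has near-identical pseudogene copies too, and the same limit holds for its late values.

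SOX2, an HMG-box factor that is also a neural progenitor gene, stood at 40.0 FPKM in hESC and at 37.8, 49.6, 51.5, 19.8, 5.96, 6.85, 5.26, 3.46, 0.860 and 0.471 FPKM at the later time points. Its highest value was that of D3, at 128.6% of hESC, when NANOG was at 4.36% and POU5F1 at 27.8%. At D4 it was at 49.5%, only just below 50% (with rescaled time points it crossed 50% at D5), and its steepest fall, -1.58 per day, lay between D4 and D5. SOX2 then stayed between 3.46 and 6.85 FPKM from D5 to D10 and dropped below 1 FPKM at D15. The neural markers SOX1 and PAX6 followed other courses: SOX1 was at or below 0.241 FPKM throughout, and PAX6 was at 0.966 FPKM at D3 and highest, at 6.07 FPKM, in cardiomyocytes. SOX3, a close relative of SOX2 that is also made in stem cells, was at 7.08 FPKM in hESC, 6.46 at D3, 3.55 at D4 and 0.0874 in cardiomyocytes. In the authors' deposited table SOX2 is placed at chr3:180701497-181554668 of hg19, a span that takes in the long noncoding RNA SOX2-OT, and this RNA ranged from 0.415 to 1.84 FPKM. The strand setting of the counting is not given in the sources used here, so at D15 and in cardiomyocytes, where both are near 1 FPKM, the values of SOX2 are uncertain.

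Measured from hESC, DPPA4, PRDM14 and UTF1 were the first to fall below 50%. This rests on the hESC column: with D1 as the baseline the loss of DPPA4 fell on day 3, as for NANOG and POU5F1, that of PRDM14 on day 5 and that of UTF1 on day 31. DPPA4, a DNA-binding protein of early embryo chromatin, stood at 714 FPKM in hESC and at 284, 249, 122, 64.0, 50.3, 49.4, 25.6, 18.0, 3.92 and 0.789 FPKM at the later time points. It lost more than 50% before D1 yet still held 7.05% of its hESC level at D5, when POU5F1 was at 1.49%. The step from hESC to D1 changed its log2(FPKM + 1) by -1.33, and its steepest daily fall after D1 was -1.02, between D2 and D3. Its neighbour and partner DPPA2 stood at 16.4 FPKM in hESC, 4.52 at D1, 2.88 at D3 and 0.544 at D4, and so was also below 50% by D1.

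PRDM14, a PR-domain zinc finger protein that helps to keep human stem cells undifferentiated, was low even in hESC, at 9.67 FPKM. It stood at 1.82, 4.75, 1.90, 1.31, 0.333, 0.0734, 0.0523, 0.0127, 0.325 and 0.167 FPKM at the later time points. It was the only member at least 2-fold higher at D2 than at D1 (1 of 9, background 2.66%), and its D2 value was just under 50% of hESC, which is 4.83 FPKM. UTF1, a chromatin-associated transcription factor of stem cells, stood at 1.33 FPKM in hESC and at 0.106 FPKM or less at each later time point, with 0 listed at D6 and D10. Values this low carry little information on the order of events after D1.

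A further group was higher at D1 than in hESC before it fell. ZFP42, the stem cell marker REX1 related to YY1, stood at 21.4 FPKM in hESC and at 104, 74.3, 49.99, 9.78, 4.80, 3.06, 0.446, 0.362, 0.310 and 0.191 FPKM at the later time points. It was at 487% of hESC at D1 and still at 234% at D3, then fell by 2.24 in log2(FPKM + 1) in the day to D4. L1TD1, an RNA-binding protein derived from a LINE-1 element, stood at 80.8 FPKM in hESC and at 177, 153, 69.4, 23.7, 11.8, 9.49, 5.97, 5.15, 0.817 and 0.709 FPKM at the later time points. Its steepest fall lay in the same step, D3 to D4, at -1.51 per day. With hESC as the measure both crossed 50% at D4, and with their own D1 maximum as the measure both crossed it at D3. Rescaling the time points to a common median ratio left 1 of these 2 genes at least 2-fold higher at D1.

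SALL4, a spalt-family zinc finger protein that is also made in fetal progenitors, was the slowest. It stood at 50.6 FPKM in hESC and at 67.2, 59.4, 54.5, 46.5, 41.1, 30.3, 22.3, 20.6, 4.51 and 2.71 FPKM at the later time points. At D4, when POU5F1 was at 5.12% of its hESC level, SALL4 was at 91.9%, and at D10 it was still at 40.8%. Its steepest daily fall was -0.43. Its paralogues took other courses: SALL1 was at 7.81 FPKM in hESC and highest, at 52.4 FPKM, at D4, and SALL3 was at 7.11 FPKM in hESC and 33.0 at D1.

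Ordered by the first time point from which a gene stayed at or below 50% of hESC, PRDM14, DPPA4 and UTF1 came at D1, NANOG at D2, POU5F1 at D3, L1TD1, ZFP42 and SOX2 at D4, and SALL4 at D8. By D1, D2 and D3 the counts were 3, 4 and 5 of 9, against 6.08%, 7.25% and 8.35% of the 15898 genes with at least 1 FPKM in hESC. By D4, 8 of 9 members had reached this level, against 10.9%, and by D8 all 9, against 14.6%. Each of these counts includes UTF1, whose fall was set by the filter. With interpolation between days on the log2 scale the crossing lay at day 1.71 for NANOG, 2.19 for POU5F1, 3.50 for L1TD1, 3.95 for ZFP42, 3.99 for SOX2 and 7.18 for SALL4. The last 2 places of D4 are not separable: ZFP42 was at 9.78 FPKM against a limit of 10.7, and SOX2 at 19.8 against 20.0. The labels give hESC no day, so the genes lost before D1 have no interpolated day.

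At 10% of hESC the order changed, because early genes differed in how long a remainder lasted. UTF1 was at or below 10% from D1, NANOG from D3, POU5F1 and DPPA4 from D4, PRDM14 from D5, ZFP42 and L1TD1 from D8, SOX2 from D10 and SALL4 from D15. By interpolation NANOG passed from 50% to 10% in 0.918 days and POU5F1 in 1.41 days, whereas SOX2 took 5.31 days. The members ended at different floors. UTF1 stayed at or below 1 FPKM from D1, PRDM14 from D5, ZFP42 from D8, SOX2 and L1TD1 from D15, and NANOG and DPPA4 only in cardiomyocytes, while POU5F1 and SALL4 were above 1 FPKM at the end.

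**Figure D2:**
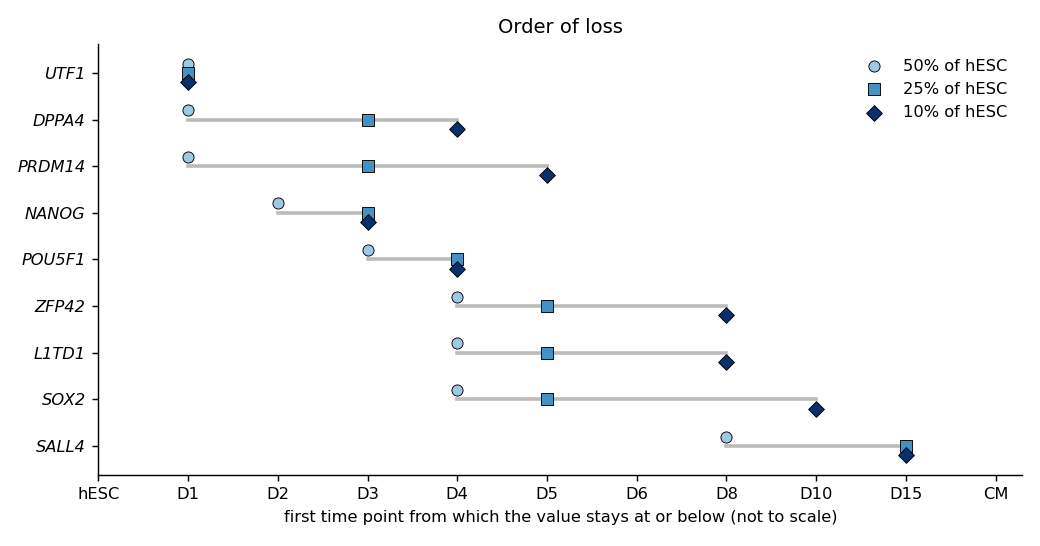
First time point from which each member stayed at or below 50% (circle), 25% (square) or 10% (diamond) of its hESC FPKM, with genes in order of loss from top to bottom and a grey line from 50% to 10%. NANOG and POU5F1 pass from 50% to 10% within 1 time point, DPPA4, PRDM14, ZFP42, L1TD1, SOX2 and SALL4 over a longer stretch.

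Between neighbouring time points the falls were spread unevenly. From D2 to D3, 4 of 9 members were at least 2-fold lower (POU5F1, NANOG, DPPA4 and L1TD1; background 5.04%), and from D3 to D4, 5 of 9 (POU5F1, NANOG, SOX2, ZFP42 and L1TD1; background 6.3%). Between D4 and D5 the count was 2 (POU5F1 and SOX2; background 1.26%), between D5 and D6 it was 1 (POU5F1; 6.19%), and between D6 and D8 it was 2 (POU5F1 and ZFP42; 0.677%). No member was 2-fold lower at D2 than at D1 (background 2.34%) or at D10 than at D8 (background 1.11%). After D2, 0 of 9 were higher in any step, with backgrounds of 3.1% to D3, 6.79% to D4, 3.68% to D5, 1.21% to D6, 1.33% to D8, 1.16% to D10, 6.32% to D15 and 7.23% to cardiomyocytes. With rescaled time points 2 members in place of 4 were lower from D2 to D3, and with a pseudocount of 0.1 the count from D4 to D5 was 5. From D10 to D15, 4 of 9 were lower (background 9.51%). The changes in log2(FPKM + 1) over this whole step were -1.97 for SALL4, -1.95 for DPPA4, -1.76 for L1TD1 and -1.26 for SOX2. Steps after D6 are longer than 1 day, so counts of different steps are not rates. Per day, the steepest fall of SALL4 lay between D5 and D6. These 4 were the members that had kept more than 3 FPKM to D10. A gene under 1 FPKM cannot fall by 1 in log2(FPKM + 1). At D10 this held for NANOG, PRDM14, ZFP42 and UTF1, so the late counts are limited by the floor. From D15 to cardiomyocytes 1 member, DPPA4, was lower (-1.46; background 4.07%). The summed FPKM of 12 proliferation genes was 187 at D15 and 472 at D10, and its relation to the late losses was not tested. The D15 column also had the lowest median ratio to the geometric mean of all time points, 0.772, so that rescaling raises all D15 values. Rescaling moved the median difference of all genes from hESC at D15 to 0.25.

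Other genes of the pluripotent state were taken from lists. Of 22 genes shared by pluripotent states, 16 were at least 2-fold lower in cardiomyocytes than in hESC (background 16.9%). A further 2 were higher, LEFTY2 and TET1 (background 18.7%), and the median difference of the list was -3.21. Only 19 of the 22 had at least 1 FPKM in hESC. TDGF1, a co-receptor for NODAL, went early, with 346 FPKM in hESC, 197 at D2, 35.8 at D3 and 7.06 at D4. LIN28A, an RNA-binding inhibitor of let-7 maturation, was kept longer, with 708 FPKM in hESC, 336 at D4, 99.0 at D10 and 3.57 at D15. PHC1, a Polycomb subunit, was among the earliest to fall, at 408 FPKM in hESC and 54.0 at D1. CDH1, the epithelial cadherin, stood at 88.6 FPKM in hESC, 69.6 at D1 and 23.9 at D2.

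Of the primed-state list, 11 of 11 measured genes were at least 2-fold lower in cardiomyocytes than in hESC (median -3.37, background 16.9%). They too spread over time: 3 were at or below 50% of hESC by D1 (background 6.08%), 7 by D4 (10.9%) and 11 by D6. By D8 the background was 14.6%. THY1, a surface marker, was at 168 FPKM in hESC and 39.3 at D1, while DNMT3B, a DNA methyltransferase, kept 88.6 of 126 FPKM at D3. Of the naive-state list, 3 of 13 were lower (background 16.9%) and 3 higher (18.7%) in cardiomyocytes than in hESC, with a median of -0.05. Both counts are near the backgrounds, so they say little about the list. Only 5 of the 13 reached 1 FPKM in hESC, where KLF4 was at 3.35 FPKM and KLF17 at 0.133, and TBX3, which is also a heart gene, was at 39.9 FPKM in cardiomyocytes and 0.690 in hESC.

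**Figure D3:**
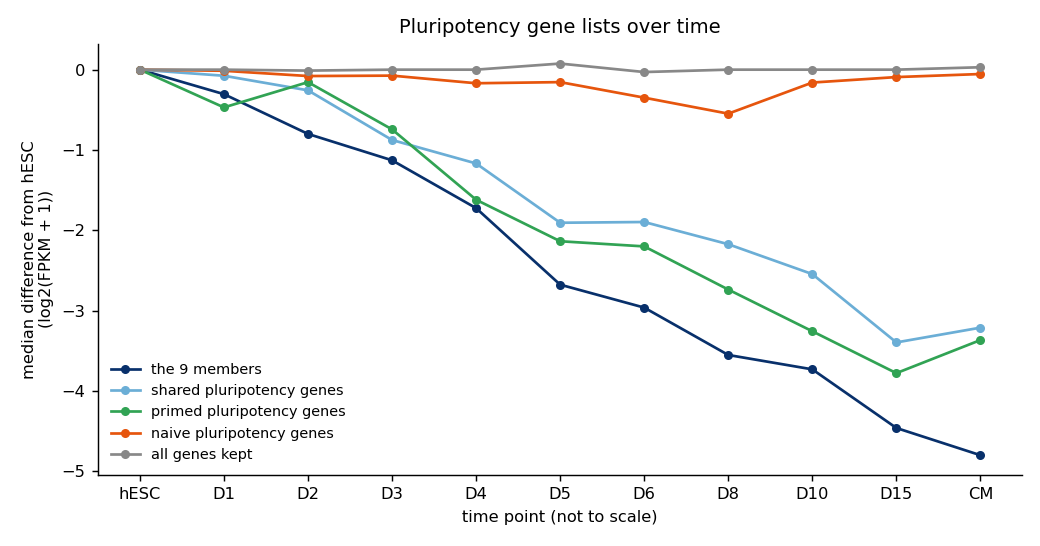
Median difference from hESC in log2(FPKM + 1) at each time point for the 9 members, the 22 shared, 11 primed and 13 naive pluripotency genes, and all 21711 genes kept. At the end the members are at -4.80, the shared list at -3.21 and the primed list at -3.37, while the naive list (-0.05) and all genes (0.03) are near 0.

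The D3 sort asked how cells that had gained ROR2 differ from those that had not. ROR2 itself was at 72.0 FPKM in PMESO cells and 5.90 FPKM in ROR2-negative cells in the authors' deposited table, as the gate sets. All 7 members listed in the authors' deposited table, each with a q-value under 0.05, were lower in PMESO cells, and 0 were higher. They were 7 of the 8 members with at least 1 FPKM in unsorted D3 cells. Of 15672 genes at that level, 11% were lower and 14.4% higher in PMESO cells. SALL4 and UTF1 were not listed, which does not show that they were equal, since the table holds only genes with a q-value under 0.05. Whether both libraries of a population are separate cultures is not in the labels, and p-values of the authors then cover only the spread between these libraries, which may be technical.

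In the authors' deposited table PRDM14 was at 0.554 FPKM in PMESO cells and 6.98 FPKM in ROR2-negative cells, a log2 change of -3.66. Its PMESO value is under 1 FPKM, so the size of this change is uncertain. SOX2 was at 6.73 FPKM in PMESO cells and 58.4 FPKM in ROR2-negative cells (-3.12) in the authors' deposited table. NANOG was at 2.19 FPKM in PMESO cells and 14.999 FPKM in ROR2-negative cells (-2.78) in the same authors' deposited table. These 3 were among the lowest log2 changes of the sort. Of all listed genes, 0.731%, 1.08% and 1.87% had a log2 change at or below theirs in the authors' deposited table. Of the genes listed there, 2081 were lower and 2567 higher in PMESO cells. The percentages rank from the lowest log2 change and do not set the members beside the size of the higher ones.

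POU5F1 was at 87.3 FPKM in PMESO cells and 449 FPKM in ROR2-negative cells (-2.36), and L1TD1 at 28.2 FPKM in PMESO cells and 102 FPKM in ROR2-negative cells (-1.86), in the authors' deposited table. DPPA4 was at 65.8 FPKM in PMESO cells and 155 FPKM in ROR2-negative cells (-1.24), and ZFP42 at 29.4 FPKM in PMESO cells and 51.2 FPKM in ROR2-negative cells (-0.80), in the authors' deposited table. Each of the 7 had a q-value of 0.00037497 in the authors' deposited table, which goes with its smallest p-value, 5e-05. For all 7 the unsorted D3 value of the time course lay between both populations of the authors' deposited table, though the tables were normalized apart. SOX2, at 51.5 FPKM in unsorted D3 cells, was close to the ROR2-negative value, and NANOG, at 4.81 FPKM, was nearer to PMESO.

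Other markers moved with the D3 sort. All 12 primitive streak genes and 10 of 12 endoderm genes were higher in PMESO cells, and of the shared pluripotency genes 15 were lower and 4 higher, in the authors' deposited table. Of 5 germ cell genes listed, 3 were lower and 2, KIT and PRDM1, higher in PMESO cells in the authors' deposited table. The 3 lower ones, DAZL, TFAP2A and TFAP2C, were at 1.48, 1.81 and 1.88 FPKM in PMESO cells and at 10.8, 16.7 and 10.9 FPKM in ROR2-negative cells, in the authors' deposited table. SOX3 was at 0.398 FPKM in PMESO cells and 8.21 FPKM in ROR2-negative cells in the authors' deposited table. In unsorted cells the germ cell gene DDX4 was at 0.131 FPKM and NANOS3 at 0.240 FPKM at D3. Whether germ cells were present, and what part they had in the members' differences, was not tested.

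The D4 sort compared cells that were all ROR2-positive. PDGFRA was at 304 FPKM in CMESO cells and 8.28 FPKM in PDGFRa-negative cells in the authors' deposited table, as the gate sets. Again 7 of 9 members were listed, and all 7 were lower and 0 higher in CMESO cells in the authors' deposited table. They were 7 of the 8 members with at least 1 FPKM in unsorted D4 cells. Of 16508 genes at that level, 13% were lower and 12.3% higher in CMESO cells. The 7 were not the same as at D3. SALL4 entered the authors' deposited table and NANOG, at 1.04 FPKM in unsorted D4 cells, was not listed, nor was UTF1.

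SOX2 was at 0.529 FPKM in CMESO cells and 13.7 FPKM in PDGFRa-negative cells, 25.9-fold higher in PDGFRa-negative cells (log2 -4.69) in the authors' deposited table. This was the 16th lowest log2 change among the 4825 genes of the authors' deposited table. The CMESO values of SOX2 and PRDM14 are under 1 FPKM, so the sizes of their changes are uncertain. For SOX2 the limit from the overlap with SOX2-OT holds here too. PRDM14 was at 0.226 FPKM in CMESO cells and 2.55 FPKM in PDGFRa-negative cells (-3.50, q-value 0.00278816), and POU5F1 at 9.30 FPKM in CMESO cells and 63.3 FPKM in PDGFRa-negative cells (-2.77, q-value 0.000268924), in the authors' deposited table.

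The other 4 differed less. ZFP42 was at 11.3 FPKM in CMESO cells and 27.5 FPKM in PDGFRa-negative cells (-1.29), and L1TD1 at 13.7 FPKM in CMESO cells and 32.9 FPKM in PDGFRa-negative cells (-1.27), in the authors' deposited table. SALL4 was at 41.7 FPKM in CMESO cells and 65.0 FPKM in PDGFRa-negative cells (-0.64, q-value 0.000512699), and DPPA4 at 55.9 FPKM in CMESO cells and 78.9 FPKM in PDGFRa-negative cells (-0.50, q-value 0.00964792), in the authors' deposited table. CMESO cells thus still held SALL4 and DPPA4 at 64.1% and 70.9% of the PDGFRa-negative level in the authors' deposited table, but SOX2 at 3.86%. The unsorted D4 value lay between both populations for 5 members, above both for SOX2 (19.8 FPKM) and below both for ZFP42 (9.78 FPKM), with tables normalized apart and ROR2-negative cells absent from the sort.

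**Figure D4:**
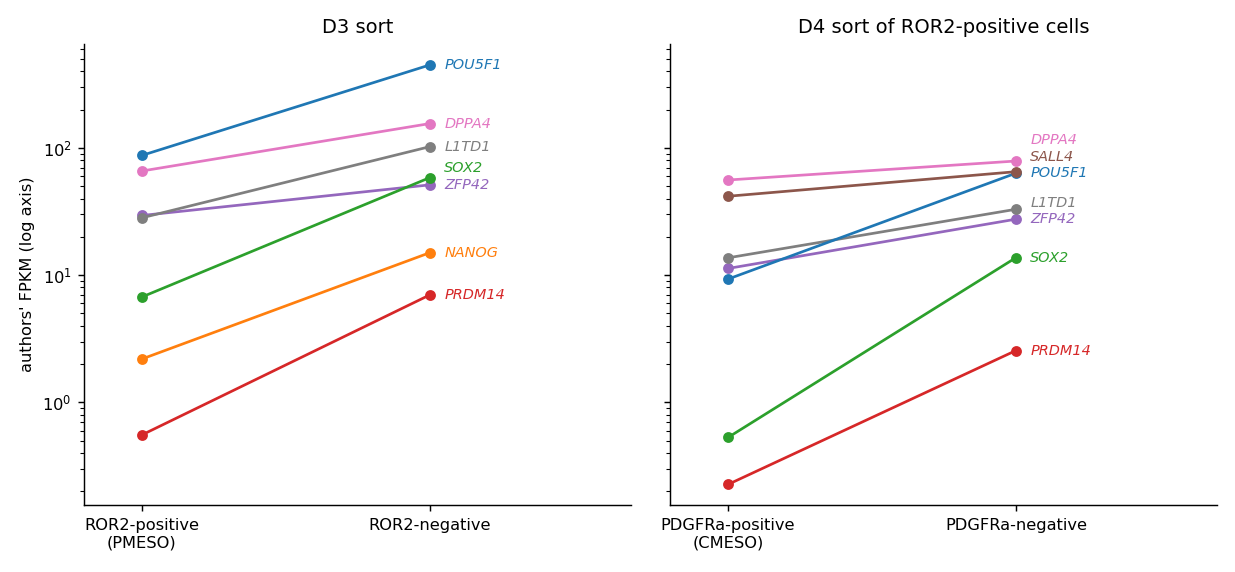
The authors' FPKM (log axis) of each listed member in PMESO (left) and ROR2-negative (right) D3 cells, and in CMESO (left) and PDGFRa-negative (right) ROR2-positive D4 cells. Each line joins 1 gene, and all lines are lower on the left, with the steepest slopes for PRDM14 and SOX2. The left values of PRDM14 in both sorts and of SOX2 in the D4 sort are under 1 FPKM, so these slopes are uncertain.

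Most of the endoderm genes listed moved with the members at D4, as did the epithelial gene CDH1. FOXA2 was at 3.16 FPKM in CMESO cells and 23.0 FPKM in PDGFRa-negative cells, SOX17 at 2.30 FPKM in CMESO cells and 10.1 FPKM in PDGFRa-negative cells, and CDH1 at 3.90 FPKM in CMESO cells and 41.9 FPKM in PDGFRa-negative cells, in the authors' deposited table. Of 12 endoderm genes 7 were lower and 3 higher in CMESO cells in the authors' deposited table. The 3 higher ones, AFP, APOA1 and GATA4, were at 1.77, 40.0 and 47.5 FPKM in CMESO cells in the authors' deposited table. In PDGFRa-negative cells they were at 0.314, 22.1 and 18.6 FPKM in the authors' deposited table. Of 10 cardiomyocyte genes 8 were higher and 0 lower in CMESO cells in the authors' deposited table. The endoderm list thus ran with the streak genes in the D3 sort and mostly with the pluripotency factors in the D4 sort. Its part in the members' differences was not tested. All 5 germ cell genes listed were also lower in CMESO cells in the authors' deposited table. TERF1, a telomere protein of the shared list, was at 58.7 FPKM in CMESO cells and 33.6 FPKM in PDGFRa-negative cells in the authors' deposited table, against the members' direction.

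The members were also compared with each other by the Pearson correlation of log2(FPKM + 1) over the 11 time points, given as a description because the time points are steps of 1 course. The highest pair was SOX2 with L1TD1 (0.976), followed by ZFP42 with L1TD1 (0.964) and POU5F1 with ZFP42 (0.957). POU5F1 and NANOG reached 0.892, NANOG and SOX2 0.731, and NANOG and SALL4 0.537. Among 11142 other genes that reached at least 10 FPKM, the closest to POU5F1 included the microRNA entry MIR302B (0.988), of a cluster typical of stem cells, which was at 2370 FPKM at D2 and 36.7 at D5. SALL4 was closest to LIN28A (0.987), ZFP42 to VRTN (0.992), which also stood higher at D1 (70.2 FPKM) than in hESC (17.9 FPKM), and L1TD1 to DNMT3B (0.983). NANOG was closest to the noncoding AP000459.4 (0.990), SOX2 to the alkaline phosphatase ALPL (0.983), PRDM14 to the glypican GPC4 (0.960) and DPPA4 to PPM1H (0.982). UTF1 was closest to ALPPL2 (0.996), and next but one to GDF15 (0.988), a stress gene at 1.06 FPKM at D1 and 94.3 FPKM in hESC, so its neighbours were genes high in hESC alone.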

How the data were processed

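Expression was measured by RNA sequencing in H7 cells at 11 time points and in 4 sorted populations, with 2 libraries a group. The authors deposited FPKM values, 1 per gene and time point; the unit was read from the values and from the tools in the submitters' processing notes, which are Cufflinks, Bowtie2 2.1.0.0 and TopHat2 2.0.8b, with build hg19. How genes were annotated, whether strand was used and how columns were scaled is not given in the sources used here, and the depth is unknown. Per the file headers, the deposited sort tables hold FPKM, the q-value, the p-value, a score (the test statistic), the ratio and the log2 fold change of genes with a q-value under 0.05. They were normalized apart from the time course.

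Of 41495 entries, 21711 that reached 1 FPKM at any time point, and whose name is unique, were kept. Differences were computed on log2(FPKM + 1), with a pseudocount of 1, which understates changes of low genes. Loss was the first time point from which every later FPKM was at or below 50% (or 10%) of hESC. With libraries not given apart, no test was run. Spreadsheet errors in the sort tables' log2 column, where the positive population is at 0, were replaced by the direction its FPKM gives. The genes named were the 9 members, for each member the 3 genes of highest correlation (the closest are printed), and genes of the shared, primed and naive lists; markers of other cell types, paralogues and stress genes were added for context. The members and lists were chosen with earlier results of these data known. Scripts (Python 3.11.15, pandas 2.3.3, NumPy 2.4.6, matplotlib 3.10.9) were tested on simulated data. Alternatives were another pseudocount, rescaling, no filter, other baselines and end points, and other thresholds.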

Additional observations from a re-analysis of the deposited data

How the results depend on the processing

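Over 153 alternative values, 110 were counted as the same and 43 as moved. A count or percentage was the same if it came within 1.5 times of the value reported, and a day only if it was unchanged. A 4-fold in place of a 2-fold threshold left 0 members lower and 1 higher at D1 than in hESC, 0 higher at D2 than at D1, 1 lower at D3 than at D2, 2 lower at D4 than at D3, and 0 lower in each of the steps to D5, D6, D8, D15 and cardiomyocytes. A pseudocount of 0.1 gave 5 members lower at D5 than at D4, 3 lower at D6 than at D5, 1 higher at D10 than at D8, 2 higher at D15 than at D10, 2 lower in cardiomyocytes than at D15, and 5 naive genes lower in cardiomyocytes than in hESC. Rescaling by the median ratio gave 1 member higher at D1 than in hESC, 2 lower at D3 than at D2 and 1 higher at D15 than at D10, and moved the loss of SOX2 to day 5. Without the filter on low values, 8.83% of all entries were lower in cardiomyocytes than in hESC. With D1 as the baseline, or with 25% in place of 50%, 5 members were lost by D4; with D1 as the baseline the loss of NANOG, ZFP42, DPPA4 and L1TD1 fell on day 3, of SOX2 and PRDM14 on day 5, of SALL4 on day 6 and of UTF1 on day 31. The causes were not tested.

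Under a q-value of 0.01 both sorts kept 7 members lower. The 9 members lower in cardiomyocytes than in hESC were 8 under the 4-fold threshold and 8 with D1 as the baseline, and 9 under the other alternatives run (pseudocount, rescaling, D15 as the end point). Leaving out a library was not run, since each deposited value stands for 2 libraries. No paired analysis was possible because the libraries are not given apart. Values under about 1 FPKM, such as those of UTF1 after hESC, are too low to order.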

Other observations

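Some relatives of the members and noncoding genes of stem cells took other courses. LINC-ROR, a noncoding RNA of stem cells, stood at 0.404 FPKM in hESC and was highest at D1 (2.07 FPKM), as were SALL3 and ZFP42. PRDM1, a PR-domain relative of PRDM14 that is used in endoderm and germ cells, took the opposite course, at 0.844 FPKM in hESC, 6.12 at D4 and 9.76 at D5, when PRDM14 was at 0.333 FPKM. PRDM1 was at 2.79 FPKM in PMESO cells and 0.652 FPKM in ROR2-negative cells at D3 in the authors' deposited table. In the authors' deposited table of the D4 sort it was at 3.21 FPKM in CMESO cells and 14.2 FPKM in PDGFRa-negative cells.

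On the shared list, FGF4 and LEFTY1 were high only briefly. FGF4 was at 0.160 FPKM in hESC, 10.9 at D2 and 0.196 at D4, and LEFTY1, a NODAL inhibitor, was at 0.473 FPKM in hESC, 11.9 at D1 and 0.384 at D3. LEFTY2 came back late, at 11.2 FPKM in cardiomyocytes and 0.511 FPKM in hESC. In the authors' deposited table FGF4 was at 1.24 FPKM in PMESO cells and 0.332 FPKM in ROR2-negative cells, and LEFTY2 at 6.62 FPKM in PMESO cells and 0.422 FPKM in ROR2-negative cells, both against the members' direction.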
